A study of Mus musculus with 6 samples.

Results

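A group of 10 genes of the contractile actin cytoskeleton and of the matricellular compartment was described across 6 RNA-seq libraries of mouse embryonic stem cells (ESCs). They are the 6 cytoskeletal genes Tagln, Acta2, Cnn1, Tpm1, Actn1 and Myl9 and the 4 secreted or matricellular genes Ccn1, Ccn2, Thbs1 and Efemp1. The genes were taken by symbol from a table of 25170 gene symbols, and all 10 were found in it. They had been selected on their FPKM values after removal of leukemia inhibitory factor (LIF) against those with LIF. That contrast is therefore given for them as a description, without a test. Of the 4 groups, 2 were grown for 4 days without LIF: Hnrnpf knockout (KO) cells (2 libraries, numbered 1 and 2) and wild type (WT) cells of the line E14 (1 library). The other groups were KO cells kept with LIF (2 libraries, numbered 1 and 2) and WT cells kept with LIF (1 library). The KO cells derive from E14, an established ESC line, and the medium contained serum. LIF is a cytokine that supports self-renewal of mouse ESCs. Hnrnpf encodes an RNA-binding protein that takes part in splicing. The labels give neither the deleted part of Hnrnpf nor what a KO number stands for, such as a clone used in both media. Nor do they say that libraries came from separate cultures, so the p-values below measure only how far these libraries differ, a spread that can be technical.

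Values are FPKM, mapped fragments scaled by transcript length and library total, as the authors deposited them, and their sum per library lay between 456155 and 556318. Hnrnpf, the targeted gene, was at 27.8 and 95.2 FPKM in KO libraries 2 and 1 after LIF removal, against 335 in WT. In the cells with LIF it was at 37.1 and 98.7 FPKM in KO libraries 2 and 1, against 342 in WT. The KO libraries numbered 2 thus held 8.28% and 10.8% of the WT level, and those numbered 1 held 28.4% and 28.9%. The summed level of 6 pluripotency markers was 2659 to 3342 FPKM in KO and 3612 in WT cells after LIF removal, against 6089 to 6121 in KO and 8774 in WT cells with LIF. Dppa5a made up most of the sum in every library. It was at 1542 to 2117 FPKM in KO and 2155 in WT after LIF removal, against 4062 to 4115 and 6460 with LIF. The labelled cell type thus has its markers, which were lower after LIF removal in both genotypes. In bulk RNA such as this, fewer cells of a type and less RNA per cell cannot be told apart.

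The cytoskeletal genes are classical targets of serum response factor (SRF), which binds a DNA element called the CArG box together with its coactivators MRTF-A and MRTF-B. These coactivators are held by actin monomers and released when actin is built into filaments, so that polymerised actin feeds back on the genes that build it. Ccn1 and Ccn2 are the textbook targets of YAP and TAZ, coactivators that work with TEAD factors when the Hippo kinases are inactive or the cell is under tension, and several of the 10 genes respond to both routes. High levels of Tagln, Acta2, Cnn1 and Myl9 are best known from smooth muscle cells and myofibroblasts.

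Promoter sequences were shown for the members whose RefSeq window (build GRCm38.p6) held a motif of these factors, so that the elements can be read beside the values. A window of 300 bases, from 250 before to 50 after the annotated start, was present for 7 of the 10 genes: Acta2, Cnn1, Tpm1, Actn1, Myl9, Ccn1 and Efemp1. Both strands were searched for the CArG box (CC, 6 bases that are each A or T, GG), for GGAATG, the core element of TEAD factors, and for TATAAA. The bases upstream of the annotated exons are printed 5′ to 3′ on the strand of the gene, with matches in capitals, for Myl9 (chr2:156775214-156775419, plus strand) and for Ccn1 (chr3:145649986-145650235, minus strand).
Myl9: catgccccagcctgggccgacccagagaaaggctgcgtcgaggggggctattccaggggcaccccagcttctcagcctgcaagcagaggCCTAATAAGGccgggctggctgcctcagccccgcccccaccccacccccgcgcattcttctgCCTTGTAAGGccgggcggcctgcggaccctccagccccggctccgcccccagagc
Ccn1: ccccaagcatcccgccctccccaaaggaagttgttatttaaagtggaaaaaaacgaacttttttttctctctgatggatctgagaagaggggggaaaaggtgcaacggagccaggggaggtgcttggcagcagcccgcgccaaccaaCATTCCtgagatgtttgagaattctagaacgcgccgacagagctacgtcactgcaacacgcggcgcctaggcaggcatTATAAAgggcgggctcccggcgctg
In Myl9 the first capitals, 161 bases before the start, are a CArG box, and the second, 99 bases before the start, are a box with 1 base other than A or T in the centre. In Ccn1 the capitals are the GGAATG element, read from the opposite strand, 103 bases before the start, and TATAAA 25 bases before it.

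For Acta2 and Tpm1, whose windows lie in annotated exons, only the matches with their flanks are printed. The Acta2 matches lie at chr19:34255438-34255467 and chr19:34255388-34255417, both CArG boxes with 1 other base, and at chr19:34255502-34255531 (GGAATG), and the Tpm1 match lies at chr9:67049252-67049281 (GGAATG), all on the minus strand.
Acta2, 84 bases before the start: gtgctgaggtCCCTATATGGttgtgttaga
Acta2, 34 bases before the start: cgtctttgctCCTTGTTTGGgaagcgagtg
Acta2, 146 bases before the start: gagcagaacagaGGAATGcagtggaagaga
Tpm1, 56 bases before the start: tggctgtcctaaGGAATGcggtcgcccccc
The exact CArG box was found in 1 of the 7 windows (Myl9), against 1.63% of all 32851 windows. A box with at most 1 other base in the central 6, a form added after the sequences had been read, was found in 2 (Acta2 and Myl9), against 9.98%. GGAATG was found in 3 (Acta2, Tpm1 and Ccn1), against 14.7%, and TATAAA in 1 (Ccn1), against 13.6%. Matches to different motifs did not overlap. The windows of Cnn1, Actn1 and Efemp1 held none of these letters, which says nothing of binding outside them.

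Most of the 10 genes stood several-fold higher after LIF removal in both genotypes, with Actn1 the exception. Tagln (chromosome 9, 45929628 to 45936058) encodes transgelin or SM22-alpha, an actin-bundling protein. It was at 125 and 45.2 FPKM in KO libraries 2 and 1 and at 90.8 in WT after LIF removal, against 12.96 and 2.32 in KO libraries 2 and 1 and 5.67 in WT with LIF. The WT library thus lay between the 2 KO libraries in each medium, and all 3 libraries after removal were above all 3 with LIF. Acta2 (chromosome 19, 34240336 to 34255585) encodes smooth muscle alpha-actin. Its level was 20.5 and 1.87 FPKM in KO and 0.744 in WT after LIF removal, against 2.16 and 0.122 in KO and 0.131 in WT with LIF, again with KO library 2 named first. Only the KO libraries numbered 2 gave it more than 2 FPKM, and number 2 with LIF exceeded both number 1 and WT after LIF removal, so the media overlapped. Acta2 reached the mean of 1 FPKM needed for testing only through number 2, since its other 4 libraries average 0.718 FPKM.

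Tpm1 (tropomyosin 1, chromosome 9, 67022590 to 67049672), which winds along the actin filament, had the highest FPKM of the cytoskeletal members after LIF removal. It was at 347 and 192 FPKM in KO libraries 2 and 1 and 281 in WT after LIF removal, against 70.9 and 47.7 in KO and 75.9 in WT with LIF. Myl9 (chromosome 2, 156775408 to 156781657) encodes a regulatory light chain of smooth muscle and nonmuscle myosin. The gene was at 24.7 and 10.6 FPKM in KO libraries 2 and 1 and 26.7 in WT after LIF removal, against 5.69 and 2.03 in KO and 3.04 in WT with LIF. For both genes the media did not overlap, and number 2 was above number 1 in each medium. Cnn1 (chromosome 9, 22099221 to 22109221) encodes calponin 1, an actin-binding inhibitor of myosin ATPase. Its FPKM was 15.00 and 7.27 FPKM in KO libraries 2 and 1 and 11.9 in WT after LIF removal, against 2.86 and 3.21 in KO and 1.15 in WT with LIF. With LIF the 2 KO libraries lay close together and above WT, and after LIF removal they lay on both sides of it. Actn1 (chromosome 12, 80167542 to 80260420) encodes alpha-actinin 1, a crosslinker of stress fibres and focal adhesions. Actn1 was at 72.4 and 58.1 FPKM in KO libraries 2 and 1 and 63.3 in WT after LIF removal, against 55.2 and 66.0 in KO and 78.5 in WT with LIF. The 2 media overlapped, and the WT library with LIF was the highest of the 6.

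Ccn2 (chromosome 10, 24595442 to 24598683) encodes CTGF, a secreted matricellular protein that binds integrins and growth factors. Ccn2 was at 165 and 211 FPKM in KO libraries 2 and 1 and 172 in WT after LIF removal, against 57.6 and 40.04 in KO and 33.3 in WT with LIF. It was the matricellular member with the highest FPKM in each of the 6 libraries, and the 1 member in which number 2 lay below number 1 after LIF removal. Ccn1 (chromosome 3, 145646971 to 145649985) encodes its close relative CYR61. Ccn1 was at 95.8 and 67.9 FPKM in KO libraries 2 and 1 and 68.1 in WT after LIF removal, against 13.7 and 5.47 in KO and 6.76 in WT with LIF. Number 1 and WT differed little in each medium, and number 2 lay above both. Thbs1 (chromosome 2, 118111876 to 118127133) encodes thrombospondin 1, an adhesive glycoprotein that can activate latent TGF-beta. Thbs1 was at 39.5 and 15.3 FPKM in KO libraries 2 and 1 and 14.2 in WT after LIF removal, against 3.77 and 0.377 in KO and 0.805 in WT with LIF. As for Ccn1, number 2 was the highest library in each medium. Efemp1 (chromosome 11, 28853154 to 28926743) encodes fibulin 3, a glycoprotein of the extracellular matrix. Efemp1 was at 11.7 and 8.86 FPKM in KO libraries 2 and 1 and 2.66 in WT after LIF removal, against 0.517 and 0.280 in KO and 0.386 in WT with LIF. Both KO libraries stood above WT after LIF removal, and they bracketed it with LIF.

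**Figure D1:**
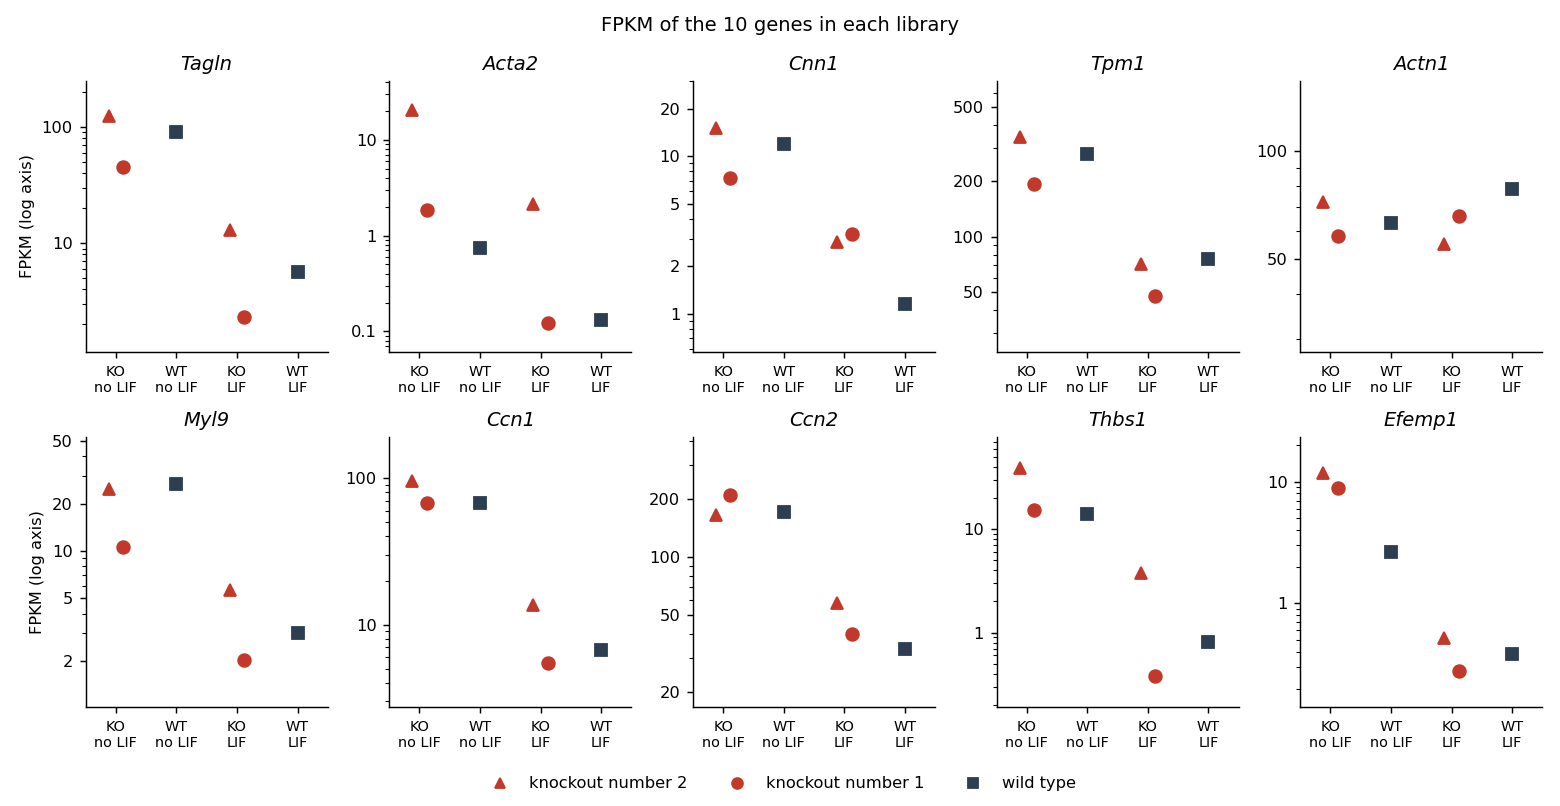
FPKM (log axis, a separate range in each panel) of the 10 genes in the 6 libraries, with groups along the horizontal axis as KO and WT after LIF removal and KO and WT with LIF, and each point 1 library. Tagln, for example, reaches 125 and 45.2 FPKM in KO and 90.8 in WT after LIF removal, while the points of Actn1 stay between 55.2 and 78.5.

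As group means, Tagln stood at 84.9 ± 56.1 FPKM in KO cells after LIF removal and 7.64 ± 7.52 in KO cells with LIF (SD, n = 2 each). For Tpm1 the KO means were 269.7 ± 109 after and 59.3 ± 16.4 with LIF, for Ccn1 81.8 ± 19.7 and 9.60 ± 5.84, for Ccn2 188 ± 32.5 and 48.8 ± 12.4, and for Efemp1 10.3 ± 2.03 and 0.398 ± 0.167 (SD, n = 2 each). The SD of Tagln with LIF was close to its mean, whereas that of Ccn2 was a small part of it. Acta2 had an SD above its mean in both media, with 11.2 ± 13.2 FPKM after LIF removal and 1.14 ± 1.44 with LIF in KO cells (SD, n = 2 each). For Cnn1 the KO mean was 11.1 ± 5.46 FPKM after LIF removal and 3.04 ± 0.247 with LIF, for Myl9 17.7 ± 9.96 and 3.86 ± 2.59, for Thbs1 27.4 ± 17.1 and 2.07 ± 2.40, and for Actn1 65.2 ± 10.1 and 60.6 ± 7.65 (SD, n = 2 each).

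Differences between media are given on the log2(FPKM + 1) scale, which understates the change of low genes such as Acta2, Thbs1 and Efemp1. In 8 of the 10 genes, that is all but Acta2 and Actn1, the 3 libraries after LIF removal lay above the 3 with LIF, a pattern that 14.9% of the 11785 tested genes shared. Nothing is read from this count, because the same contrast chose the genes. The median difference of the 10 genes was 2.10 in KO cells, against -0.02 for all tested genes, and 2.46 in WT cells, against -0.04. In KO cells the largest differences belonged to Tagln (3.48, SE 0.70), Thbs1 (3.32, SE 0.63), Ccn1 (3.06, SE 0.38) and Efemp1 (3.01, SE 0.24), and in WT cells, where 1 library stands against 1 with no error, to Tagln (3.78), Ccn1 (3.15) and Thbs1 (3.07). The same 3 genes thus headed both genotypes together with Efemp1 in KO cells alone. In FPKM, Efemp1 was 25.9 times its level with LIF in KO cells and 6.91 times in WT cells, Acta2 9.83 and 5.68 times, Tagln 11.1 and 16.0 times, Myl9 4.57 and 8.78 times and Cnn1 3.67 and 10.4 times. Actn1 differed by 0.10 (SE 0.16) in KO cells and by -0.31 in WT cells.

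**Figure D2:**
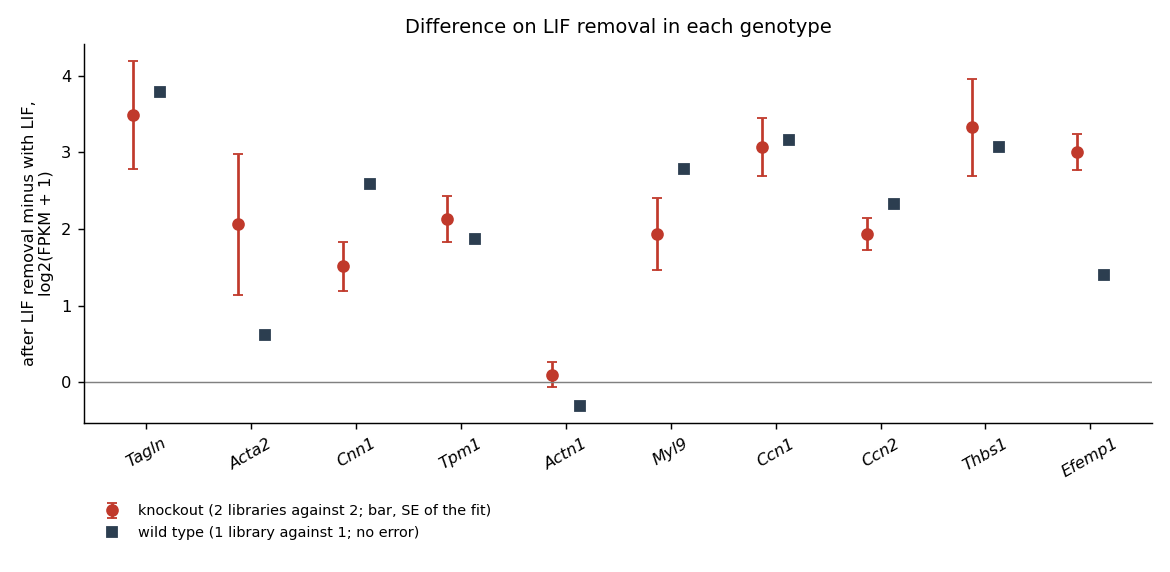
Difference between libraries after LIF removal and with LIF, on the log2(FPKM + 1) scale, for each gene in KO cells (circles, bars are the SE of the fit, n = 2 against 2) and WT cells (squares, 1 library against 1, no error). Efemp1 is the gene with the widest gap between genotypes, 3.01 in KO and 1.40 in WT, and Actn1 lies near 0 in both.

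Whether loss of Hnrnpf altered these genes could be tested for members other than Acta2 and Efemp1, since the genotype contrast is independent of the one that chose them. None of the 10 genes passed the threshold between KO and WT cells over both media (limma, adjusted p under 0.05), where 10.5% of all tested genes did, and at an unadjusted p under 0.05 there was 1 of 10 (Efemp1), against 27.7%. The median difference of the 10 genes was 0.30, against -0.03 for all tested genes. Acta2 had the largest estimate, 1.45 (SE 0.77, limma adjusted p = 0.265), followed by Efemp1 with 0.81 (SE 0.34, limma adjusted p = 0.169) and Thbs1 with 0.63 (SE 0.50, limma adjusted p = 0.463). Acta2 and Efemp1 reached the mean for testing only through KO libraries in which they are high. Nothing is read from their estimates or their rank, and both also enter the median of 0.30. The remaining estimates lay between -0.26 (Myl9, SE 0.40) and 0.37 (Cnn1, SE 0.31), and Tagln gave -0.12 with an SE of 0.56. An SE of this size leaves room for a change of Tagln in either direction.

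Within each medium alone no member passed either. With LIF 0 of 10 genes passed (limma; 0.0424% of all tested genes did), and at an unadjusted p under 0.05 there were 0 of 10, against 16.7%. After LIF removal 0 of 10 passed (limma; 0.0594% of all tested genes did), and at an unadjusted p under 0.05 there was 1 of 10, against 15.5%, which was Efemp1 (1.61, SE 0.29). Efemp1 reached the mean for testing only through the KO libraries after LIF removal, the group in which it is high, since its other 4 libraries average 0.962 FPKM. Nothing is read from its tests between KO and WT cells. No gene had both KO libraries above WT in each medium, against 21.6% of all tested genes, and none had both below, against 26.1%. Instead the 2 KO libraries lay on both sides of WT for 6 of 10 genes after LIF removal, against 25.4% of all tested genes, and for 6 of 10 with LIF, against 23.1%.

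The difference between the responses of KO and WT cells to LIF removal passed for 0 of 10 genes (limma; 0.00% of all tested genes passed), and at an unadjusted p under 0.05 there was 1 of 10, against 2.89%. That gene was Efemp1, with a KO response minus WT response of 1.60 (SE 0.41). Nothing is read from this test or count either, since Efemp1 was tested only through the KO libraries after LIF removal. The KO mean of Efemp1 was 3.86 times WT after LIF removal and 1.03 times WT with LIF. Efemp1 is the 1 member on chromosome 11, where the median of 1007 tested genes was 0.48 and 0.42 higher in KO libraries 2 and 1 than in WT after LIF removal and 0.46 and 0.45 higher with LIF. The chromosomes of the other members had medians between -0.14 and -0.01. The part of the chromosome in the Efemp1 value was not tested.

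The members also differed between the KO libraries of a medium. The libraries numbered 2 stood above those numbered 1 in both media for 7 of 10 genes, against 31.2% of all tested genes, and the median difference was 0.90 after LIF removal and 0.85 with LIF, against 0.0064 and 0.0048 for all tested genes. A difference of at least 1 (log2) in both media was reached by 4 of 10, Tagln, Acta2, Myl9 and Thbs1, against 0.348% of all tested genes, and by none in the other direction, against 0.0933%. Acta2 is among the tested genes only through number 2, which favoured its place in all counts and medians of this paragraph. Without Acta2 the count of genes with at least 1 in both media was 3 of 9. In a single medium a difference of at least 1 was reached by 4 of 10 after LIF removal, Acta2 among them, against 1.26%. With LIF it was reached by 5 of 10, the same genes and Ccn1, against 1.24%. Acta2 in number 2 was 10.97 times number 1 after LIF removal and 17.6 times with LIF, Tagln 2.76 and 5.59 times and Myl9 2.32 and 2.80 times. For Thbs1 the difference was 1.31 after LIF removal and 1.79 with LIF on the log2(FPKM + 1) scale. Number 2 minus number 1 was 0.31 after LIF removal and -0.25 with LIF for Actn1, 0.95 and -0.13 for Cnn1, and -0.35 and 0.51 for Ccn2, so these 3 genes had no constant order of the numbers. Each of these compares 1 library with 1, so no test of a single medium was made.

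Taking each KO number alone against WT over both media, a choice made after seeing the data that leaves out the other pair of KO libraries, gave calls in opposite directions. The split was prompted by the order of the libraries described above, so these calls restate that order and are no separate support for it. Number 2 was higher than WT for 4 of 10 genes, against 10.8% of all tested genes called higher (limma): Acta2 (2.55, SE 0.41, a call not read because Acta2 was tested only through number 2), Thbs1 (1.41, SE 0.17, adjusted p = 0.00138), Tagln (0.76, SE 0.15, adjusted p = 0.00982) and Ccn1 (0.71, SE 0.14, adjusted p = 0.00856). Number 1 was lower than WT for 3 of 10, against 5.35% called lower: Tagln (-0.999, SE 0.17, limma adjusted p = 0.00201), Tpm1 (-0.60, SE 0.14, adjusted p = 0.0143) and Myl9 (-0.83, SE 0.22, adjusted p = 0.0263). No member was lower in number 2 or higher in number 1 by this test, against 10.7% and 5.38% of all tested genes. Tagln was thus called in opposite directions in the 2 KO numbers. The KO libraries of each fit share 1 number. Apart from the moderation over all tested genes, the spread comes from how far the KO minus WT difference changes between the 2 media. These p-values therefore do not measure the spread between cultures or clones of a number. Both numbers share the WT libraries.

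**Figure D3:**
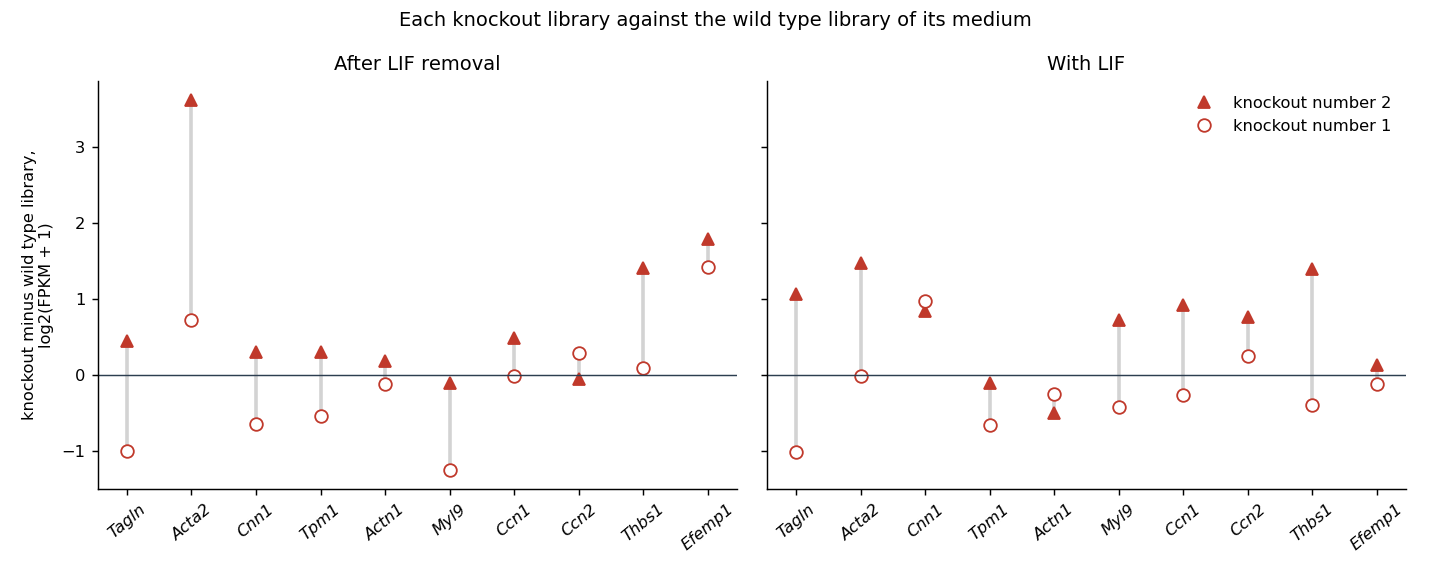
Each KO library against the WT library of its medium, as a difference in log2(FPKM + 1), after LIF removal (left panel) and with LIF (right panel), with triangles for number 2, open circles for number 1 and a line joining the 2. Tagln shows number 2 above and number 1 below WT in both panels, while both numbers lie above WT for Efemp1 after LIF removal.

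Markers of other cell types differed between the same libraries. After LIF removal the summed level of 5 trophoblast markers was 286 FPKM in KO library 2 and 136 in number 1, against 96.8 in WT. That of 7 primitive and parietal endoderm markers was 184 and 105, against 74.1 in WT, and that of 4 primitive streak markers was 25.2 and 12.1, against 16.6 in WT. With LIF the sum was 84.4 FPKM in KO library 2 and 60.2 in number 1 for trophoblast markers, against 56.9 in WT, and 121 and 73.9 for endoderm markers, against 44.8. For streak markers it was 5.42 and 7.15 with LIF, against 5.82 in WT. Trophoblast and endoderm sums were thus higher in number 2 in both media, and streak sums only after LIF removal. A few genes carried them. Of the endoderm sum, Sparc, which lies on chromosome 11, made up 172 FPKM in KO library 2 and 97.3 in number 1 after LIF removal, against 67.8 in WT. Of the trophoblast sum, Krt8 made up 123 and 51.2 FPKM, against 35.3 in WT, and Krt18 143 and 65.8 FPKM, against 49.8 in WT. The other markers were mixed. Cdx2, a trophoblast factor, was at 2.68 and 1.46 FPKM in KO libraries 2 and 1 after LIF removal, against 0.995 in WT. With LIF it was at 1.23 and 0.339 FPKM, against 0.121 in WT. Dab2 of the endoderm list and T of the streak list were also highest in number 2 and lowest in WT in both media. Lama1 of the endoderm list was at 0.804 and 1.22 FPKM in KO libraries 2 and 1 with LIF, against 2.71 in WT. After LIF removal Lama1 was at 0.930 and 0.622, against 0.925 in WT. Mesp1 of the streak list was at 0.265 and 1.07 FPKM in KO libraries 2 and 1 with LIF, against 0.0957 in WT. After LIF removal Mesp1 was at 0 in both KO libraries, against 0.189 in WT. Mixl1 was highest in number 2 after LIF removal but not with LIF. Eomes was higher in number 2 than in number 1 only after LIF removal. Sox17, Sox7, Gata6 and Elf5 were under 1 FPKM in every library. After LIF removal Gata4 was at 1.56 and 1.92 FPKM in KO libraries 2 and 1, against 1.42 in WT, and Tfap2c at 17.1 and 17.5, against 10.7 in WT. With LIF, Gata4 was again lower in number 2 than in number 1. Tfap2c was higher in number 2 than in number 1 with LIF, and both were below WT. The part of these cell types in the result was not tested. Fibroblast (feeder) markers summed to 7.63 to 10.2 FPKM in KO and 6.52 in WT after LIF removal, against 9.11 to 9.53 in KO and 4.26 in WT with LIF, and 6 of the 9 stayed under 1 FPKM in every library. Of 6 smooth muscle markers, which include Cnn1 itself, 3 stayed under 1 FPKM in every library, among them the smooth muscle myosin heavy chain Myh11, which reached 0.152 FPKM at most, myocardin (Myocd), which reached 0.189, and Lmod1, which reached 0.606. Smtn lay between 15.4 and 21.5 FPKM and Des between 3.23 and 5.58 over the 6 libraries. Their sum was 26.4 to 39.6 FPKM in KO and 33.3 in WT after LIF removal, against 28.3 to 30.7 in KO and 22.1 in WT with LIF. Cardiac markers summed to at most 9.96 FPKM, and endothelial markers to 14.2 to 14.9 in KO and 10.8 in WT after LIF removal, against 31.4 to 32.4 and 32.1 with LIF. Of the endothelial sum, Pecam1 made up 7.67 to 11.9 FPKM after LIF removal and 27.0 to 29.4 with LIF. Kdr and Cdh5 stayed under 1 FPKM in every library.

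The wider SRF and YAP/TAZ pathways were followed in 8 lists that hold no member, with 99 of 125 genes tested. The lists were chosen with earlier results of these data known. Their shares of calls, here and below, are therefore a description and no separate support. On LIF removal over both genotypes 39 passed (limma), 27 higher and 12 lower, which is 39.4%, against 21.4% of all tested genes (8.73% higher and 12.7% lower). The count was 22 without KO library 1 with LIF and 15 without either WT library. Of the 27 higher genes, 5 (Actc1, Fhl2, Tgfb1i1, Lats2 and Nt5e) averaged under 1 FPKM with LIF and were tested only through the libraries after LIF removal, so they could be called only as higher. With a mean of at least 1 FPKM in each medium there were 94 genes, of which 22 were higher and 12 lower. Between KO and WT over both media 10 passed, 4 higher and 6 lower, or 10.1%, against 10.5% of all tested genes (5.79% higher and 4.67% lower). The count was 5 without KO library 2 with LIF and 0 without either WT library, where genotypes are compared in 1 medium alone.

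Of 14 other cytoskeletal targets of SRF and MRTF, 11 were tested, and 7 of them were higher after LIF removal and 0 lower. The list median was 0.79, against -0.03 for all tested genes. Of the 7, Fhl2 and Tgfb1i1 were tested only through the libraries after LIF removal, and 5 of 9 remained without these. The myosin light chain Myl6 (0.05, adjusted p = 0.852) and Pdlim7 (0.04, adjusted p = 0.896) did not pass the limma test. Zyxin (Zyx), a focal adhesion protein that senses tension, was higher by 2.06 (SE 0.24, limma adjusted p = 0.00198). Caldesmon (Cald1), which stabilises thin filaments, was higher by 1.91 (SE 0.27, limma adjusted p = 0.00380), Fhl1 by 0.93 (SE 0.15, adjusted p = 0.00524) and vinculin (Vcl), which links integrins to actin, by 0.79 (SE 0.10, adjusted p = 0.00264). Of these 11 genes 1 differed between KO and WT cells, Fhl1, which was lower in KO cells (-0.63, SE 0.15, limma adjusted p = 0.0402). Among 15 tested targets of YAP, TAZ and TEAD outside the members, 6 were higher and 0 lower, with a median of 0.48. Lats2 and Nt5e, among the 6, were tested only through the libraries after LIF removal, and without these the count was 4 of 13. The others were the phosphatase Ptpn14 (2.12, SE 0.25, limma adjusted p = 0.00193), the growth factor binding protein Igfbp3 (1.92, SE 0.27, adjusted p = 0.00364), the angiomotin-like Amotl2 (1.28, SE 0.19, adjusted p = 0.00449) and Crim1 (1.06, SE 0.26, adjusted p = 0.0236). Igfbp3 was also higher in KO than in WT cells (1.10, SE 0.29, limma adjusted p = 0.0485), as the 1 call of that list, and lies on chromosome 11, whose genes were higher in the KO libraries as a whole.

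Paralogs of the members went both ways. Of 19 tested, 4 were higher after LIF removal and 2 lower, with a median of 0.28. Tropomyosin 4 (Tpm4, 1.29, SE 0.12, limma adjusted p = 0.00110) and cardiac actin (Actc1, 1.36, SE 0.25, adjusted p = 0.00936) rose, Actc1 being tested only through the libraries after LIF removal. In the other direction alpha-actinin 3 (Actn3, -1.40, SE 0.17, adjusted p = 0.00225) and fibulin 1 (Fbln1, -0.64, SE 0.15, adjusted p = 0.0216) fell. The abundant cytoplasmic actins Actb and Actg1 gave 0.05 (SE 0.12, adjusted p = 0.799) and 0.37 (SE 0.11, adjusted p = 0.0507). Acta1, the skeletal alpha-actin, named after its values were seen, resembled Acta2. It was at 27.0 and 6.199 FPKM in KO libraries 2 and 1 and 2.42 in WT after LIF removal, against 4.08 and 0.352 in KO and 0.189 in WT with LIF. As for Acta2, number 2 was the highest library in each medium. Between KO and WT cells 0 paralogs were higher and 3 lower: the myosin light chain Myl12b (-0.83, SE 0.11, limma adjusted p = 0.00960), transgelin 3 (Tagln3, -1.02, SE 0.19, adjusted p = 0.0181) and Fbln1 (-0.73, SE 0.16, adjusted p = 0.0297).

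Most genes of the factors upstream were not called. Srf was at 22.1 and 18.2 FPKM in KO libraries 2 and 1 and 30.4 in WT after LIF removal, against 19.3 and 19.1 in KO and 20.8 in WT with LIF, and did not pass on LIF removal (0.22, SE 0.14, limma adjusted p = 0.2997). Neither did its coactivator gene Mrtfa (0.0012, SE 0.13, adjusted p = 0.996) nor Yap1 (0.28, SE 0.11, adjusted p = 0.103) nor Wwtr1, which encodes TAZ (0.55, SE 0.17, adjusted p = 0.0519). Of the 12 genes tested in the list of SRF, its coactivators and their upstream regulators, 2 were higher, the kinase Rock2 (0.49, SE 0.12, limma adjusted p = 0.0258) and the GTPase Rhob (0.61, SE 0.17, adjusted p = 0.0409). Of the 3 that were lower, Rhoc gave -0.80 (SE 0.15, limma adjusted p = 0.00951) and the cofilin kinase Limk1 -0.65 (SE 0.14, adjusted p = 0.0162), and the list median was 0.02. None of the 12 passed between KO and WT cells in the limma test, where Rhob (0.51, adjusted p = 0.118) and Rhoc (-0.42, adjusted p = 0.133) had the lowest p, and 2 of 12 were under an unadjusted p of 0.05, against 27.7% of all tested genes. Of 18 tested YAP, TAZ and Hippo genes 5 were higher on LIF removal and 2 lower, with a median of 0.32. The scaffold Amot, which tethers YAP to junctions and actin, gave 1.60 (SE 0.17, limma adjusted p = 0.00156), Amotl1 0.83 (SE 0.18, adjusted p = 0.0156), Sav1 0.51 (SE 0.12, adjusted p = 0.0225) and the Hippo activator Nf2 -0.53 (SE 0.10, adjusted p = 0.00871).

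Between KO and WT cells the Hippo kinase cofactor Mob1a was higher (1.18, SE 0.12, limma adjusted p = 0.00511), as was the upstream kinase Taok1 (0.65, SE 0.13, adjusted p = 0.0210), and Tead2 was lower (-0.71, SE 0.16, adjusted p = 0.0313). Taok1 also lies on chromosome 11. Immediate early genes under SRF and ternary complex factors were few, with 5 tested. Junb was higher (0.58, SE 0.13, limma adjusted p = 0.0170) and Mcl1 lower (-0.36, SE 0.10, adjusted p = 0.0334) on LIF removal, and Egr1 was higher in KO than in WT cells (0.96, SE 0.20, adjusted p = 0.0259). Of 7 tested TGF-beta genes 0 passed on LIF removal in the limma test (lowest for Skil, 0.29, adjusted p = 0.0672, and Tgfbr1, 0.43, adjusted p = 0.0712), and none between genotypes (lowest for Ltbp1, -0.65, adjusted p = 0.0857). At an unadjusted p under 0.05 there were 4 of 7 TGF-beta genes on LIF removal, against 36.8% of all tested genes, and 2 of 7 between genotypes, against 27.7%. Of 12 integrin and focal adhesion genes 2 rose on LIF removal, parvin alpha (Parva, 1.79, SE 0.18, limma adjusted p = 0.00136) and the kinase-like scaffold Ilk (0.60, SE 0.11, adjusted p = 0.00960). Of the same list 4 fell, among them paxillin (Pxn, -0.74, SE 0.13, adjusted p = 0.00698) and fibronectin (Fn1, -0.96, SE 0.17, adjusted p = 0.00848). Talin 1 (Tln1) was lower in KO than in WT cells (-0.69, SE 0.13, limma adjusted p = 0.0188).

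**Figure D4:**
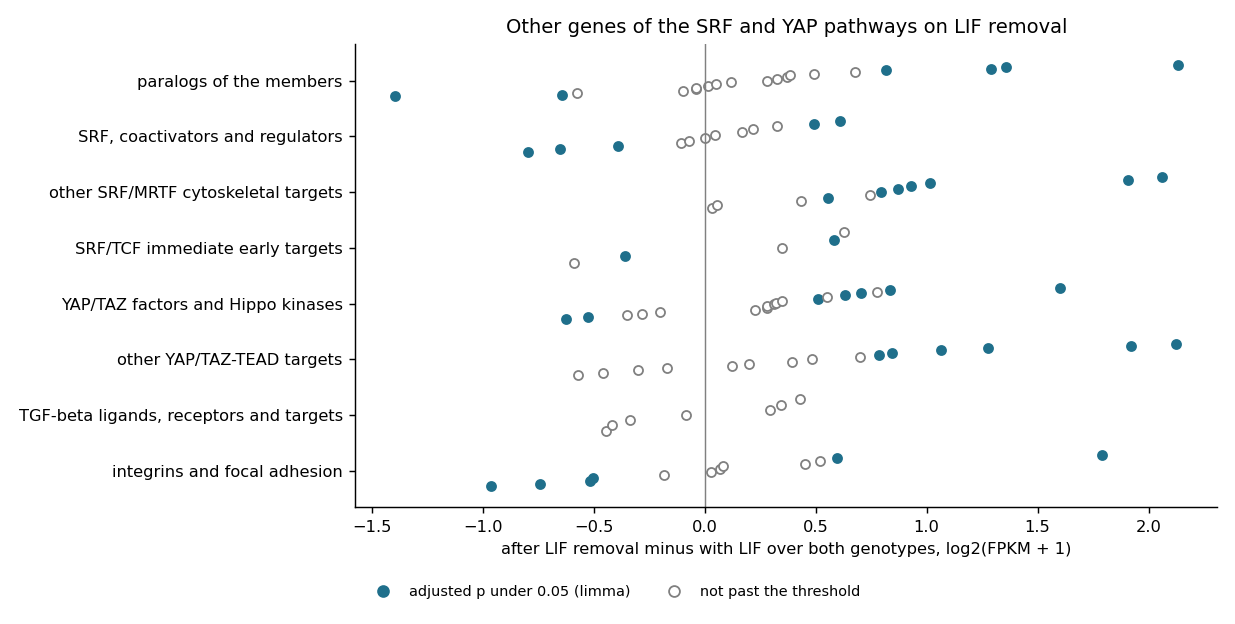
Difference after LIF removal against with LIF over both genotypes, in log2(FPKM + 1), for the 99 tested genes of the 8 lists, 1 point per gene, filled where the limma adjusted p is under 0.05; the vertical offset within a row only separates points. All 7 filled points of the other SRF and MRTF targets and all 6 of the other YAP, TAZ and TEAD targets lie right of 0, while the paralogs reach from -1.40 to 2.13.

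The genes whose profile over the 6 libraries was most like the mean of the 10 members were, of 8450 with a mean of at least 5 FPKM, Rapgef2 (Pearson r = 0.999), Rab11a (0.995), Rgmb (0.994), Kif13a (0.994) and Amotl2 (0.991). These values describe likeness only, since the 6 points fall into 2 media and share their WT libraries with every contrast above.

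Counting could mix reads for a few members. The labels do not give the strand setting of the counting, and in the GENCODE annotation Tagln overlaps Pcsk7 and an antisense transcript on the opposite strand, Ccn2 and Thbs1 each overlap 1 opposite-strand transcript and Actn1 overlaps 3 noncoding transcripts. No member shared an exact stretch of 150 transcript bases, the read length, with another gene, and at 50 bases only Acta2 (0.326% of its windows, with Actg1 and actin pseudogenes) and Actn1 (0.290%, with Actn4) did.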

How the data were processed

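FPKM values, 1 per symbol and library, are as the authors deposited them in 1 table. Per the submitters' processing notes STAR and Cufflinks were used with build mm10, and per the labels' protocols total RNA was read as 150 bp paired ends. Versions, annotation and strand setting were not stated. Read numbers behind the values are unknown, so no counting intervals are given. Relative depth, read from the steps of low values (11.8% to 15.4% of genes under 0.3 FPKM lay within 0.01 log2 of the commonest step), was 0.843 to 1.08 of the WT library with LIF. The members and lists were chosen with earlier results of these data known.

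Values were analysed as log2(FPKM + 1), unscaled. Genes averaging at least 1 FPKM, 11785 in all with the 10 members among them, were tested with limma 3.58.1 in R 4.3.3. Moderation used an intensity trend, tests were two-sided, and p was adjusted over all these genes by Benjamini-Hochberg with a threshold of 0.05. A fit with added genotype and medium terms (3 residual and 5.08 prior degrees of freedom) gave effects over both media or genotypes. A 4-group fit (2 residual and 4.70 prior) gave the effects within a medium and the difference of responses. Each lone WT library is assumed to vary like the KO libraries. Besides the 10 members and Hnrnpf, up to 4 called genes with the lowest p were named per list, or the 2 with the lowest p where none was called; a gene this rule selects is not reported here. Srf, Mrtfa, Yap1, Wwtr1, Actb, Actg1, Acta1, the genes tested only through 1 medium and single marker genes were added after their values were seen. The scripts were tested on simulated data.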

Additional observations from a re-analysis of the deposited data

Results flagged for a closer look

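The KO libraries of 6 genes named changed sides of WT between the media. For Rock2, Tgfbr1, Wwtr1, Tgfb1i1 and Tfap2c both lay above the WT library after LIF removal and both below it with LIF, and for Actb the reverse held. The response to LIF removal in KO minus that in WT was 0.32 for Rock2, 0.48 for Tgfbr1, 0.55 for Wwtr1, 0.46 for Tgfb1i1, 1.44 for Tfap2c and -0.48 for Actb. None of these differences passed the limma test (adjusted p = 0.9996 for each). The 6 genes were picked for this pattern, so nothing is read from their number. Some gaps to the lone WT library were small. After LIF removal Wwtr1 was at 22.5 FPKM in KO library 1 against 22.3 in WT, and Tgfb1i1 at 1.913 against 1.897.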

How the results depend on the processing

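No member passed between KO and WT cells in either medium alone, in the difference of responses, or over both media, under another pseudocount (0.1), no filter, a filter at a mean of 5 FPKM (which leaves Acta2 and Efemp1 untested), median ratio scaling, quantile normalization, no intensity trend, or leaving out 1 library. Neither comparison within a medium could be fitted without its own WT library, nor the difference of responses without either. In a fit with a replicate block, WT, KO number 1 and KO number 2 were 3 lines beside medium, and genotype was the mean of the KO lines against WT. There 2 members passed over both media, Acta2 (1.45, limma adjusted p = 0.0282) and Thbs1 (0.63, adjusted p = 0.0300). The Acta2 call is not read, here or without number 1, because Acta2 was tested only through number 2. More of all tested genes also passed with the block than the 1232 of the main fit. Across genes, number 2 minus number 1 correlated between the media with a Pearson r of 0.366 and a Spearman rho of 0.338, but there are only 2 pairs and the labels do not say what a number marks, so the libraries share only a number. With both libraries numbered 1 left out, 4 members passed, and with both numbered 2 left out, 3 did. The sign over both media then turned for Tagln (0.76), Tpm1 (0.10) and Myl9 (0.31) without number 1, and for Ccn1 (-0.13) and Thbs1 (-0.14) without number 2. Leaving out 1 library gave values from -0.59 to 0.30 for Tagln, -0.68 to 0.16 for Myl9, -0.17 to 0.91 for Cnn1 and -0.37 to 0.034 for Actn1, so their signs are not settled. The count of other pathway genes called on LIF removal was 15 to 39 when 1 library was left out. Of all tested genes 817 to 1924 were then called, against 2523 in the main fit. The count of 10 between KO and WT cells, an addition made after seeing the data, was 0 to 12 when 1 library was left out, 2 without a filter, 20 with the replicate block, 27 without both libraries numbered 1 and 16 without both numbered 2. The calls between KO and WT among all tested genes, 1232 in the main fit, moved too. Fewer were called without a filter or with any 1 library left out, and more with the replicate block. They were 2532 without both libraries numbered 1 and 1265 without both numbered 2. The swings are therefore not read as particular to the pathway genes. Unknown read depth limits the precision of the low values of Acta2, Thbs1 and Efemp1.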
